A study of Mus musculus with 90 samples.

Results

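The daily rhythm of liver RNA was compared between mice whose hepatocytes had lost the glucocorticoid receptor (GR) and mice that kept it, all on the control diet. Every library in the deposited table of the control-diet time series was used, 42 of the 90 samples in the series, and for each gene the interaction of genotype with the sine and cosine of a 24 h cycle was tested across all 42. Each library is poly(A) RNA from the whole liver of 1 male C57BL/6J mouse aged 20 to 21 weeks, kept on chow with 12 h of light a day. Mice ate freely until the final week, when food was offered only in the dark, from ZT 12 to ZT 0 (zeitgeber time, hours after lights on). The WT mice carried the floxed GR alleles without Cre (GRfl/fl), with 3 mice at ZT 0, 3 at ZT 4 and 4 each at ZT 8, 12, 16 and 20, 22 in all. The GRLKO mice carried the same alleles with Cre under the albumin promoter (GRfl/fl x AlbCre), with 3 mice at ZT 0, 3 at ZT 4, 4 at ZT 8, 4 at ZT 12, 3 at ZT 16 and 3 at ZT 20, 20 in all. Albumin-Cre acts in hepatocytes, so the other cells of the liver keep the receptor, and no group carried Cre without floxed alleles. Each mouse was sampled once, so a rhythm here is a pattern across mice, read at 6 times 4 h apart. The caloric restriction series of the same genotypes, described where it is used, serves only for context.

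Glucocorticoids leave the adrenal cortex in a daily wave that crests around dusk in nocturnal rodents. The hormone binds GR, which *Nr3c1* encodes, and the bound receptor enters the nucleus and raises or lowers the transcription of its target genes, among them genes of amino acid breakdown and glucose production in the liver. Hepatocytes also hold a clock, in which CLOCK and BMAL1 (the product of *Arntl*) drive *Per*, *Cry* and *Nr1d1* genes that feed back on them, and meals act on liver genes as well, so that hormone, clock and food can each shape when a transcript peaks.

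*Nr3c1* checked the genotypes. In the 22 WT livers it ranged from 72.8 to 117 CPM (counts per 1000000 counts of a library, scaled by trimmed mean of M values) with a median of 86.9, and in the 20 GRLKO livers from 16.2 to 28.8 with a median of 21.7. Every GRLKO liver lay below every WT liver, and what remained in GRLKO is whole-tissue RNA that includes the cells Cre does not reach. The fitted daily mean fell by 1.97 on the log2 scale (adjusted p = 2.40e-27). Its fitted amplitude was 0.12 ± 0.049 (SE) in WT and 0.10 ± 0.056 in GRLKO. The rhythm passed the test in neither genotype (adjusted p = 0.115 and 0.271), and there was no interaction (adjusted p = 0.873).

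Depth was similar in the genotypes, from 11408100 to 17088900 counts per library in WT (median 13718100) and from 10057400 to 16066500 in GRLKO (median 13218400). Hepatocyte markers summed to from 76659 to 114250 CPM in WT and from 71384 to 103650 in GRLKO over 7 genes, led by *Alb*. Of the 7, 4 had a lower daily mean in GRLKO (against 7.36% of all genes tested). The other markers were far lower, and among them the Kupffer, endothelial and stellate lists moved with the hour in both genotypes. The 8 Kupffer and myeloid markers, led by *Clec4f*, had their lowest group mean of 66.3 CPM in WT at ZT 12 and their highest of 207 in GRLKO at ZT 4. The 6 endothelial markers, led by *Clec4g*, went from 80.1 in WT at ZT 12 to 172 in WT at ZT 4, and the 6 stellate markers, led by *Dcn*, from 106 in WT at ZT 12 to 284 in GRLKO at ZT 20. Such dips coincide with the time at which many of the genes below peaked, and their part in those results was not tested. In whole tissue, fewer cells of a type and less RNA per cell cannot be told apart. The edgeR test of the interaction called none of the marker genes of the hepatocyte, Kupffer, endothelial, stellate, cholangiocyte, lymphocyte, neutrophil, erythrocyte, adipocyte and exocrine pancreas lists (0 of 7, 8, 6, 6, 4, 3, 1, 5, 4 and 2 tested), and neither did DESeq2 or limma. Of all genes tested edgeR called 0.374%, so a count of 0 in lists this short says little about the markers. At an unadjusted p under 0.05 there were 1 erythrocyte and 1 pancreas gene and 0 in each other list (against 9.76% of all genes).

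The remaining markers set 3 libraries apart. GRLKO ZT 20 replicate 1 had the lowest mean correlation of log2 CPM across genes with the other mice of its group (r = 0.948 where the median library had 0.9751) and the highest stellate sum (430.2 CPM) and cholangiocyte sum (152 CPM, with *Spp1* the most abundant). WT ZT 0 replicate 3 had r = 0.960 and a stellate sum of 379.6 CPM. WT ZT 16 replicate 2 held 787 CPM of 10 exocrine pancreas genes, led by *Amy2a5*, where the other libraries held at most 4.95. Lymphocyte markers stayed at or under 6.61 CPM and neutrophil markers at or under 3.06, and erythrocyte markers, led by *Hbb-bs*, ran from 286 to 1534 CPM in WT and from 402 to 1408 in GRLKO. Adipocyte markers ran from 1997 to 4466 CPM in WT and from 2903 to 9399 in GRLKO, nearly all of it *Car3*, which hepatocytes also express. Of the 4 tested, 3 had a higher daily mean in GRLKO, *Car3*, *Cfd* and *Cidea* (against 9.06% of all genes). A lower one was called in 0 (against 7.36%), and the median difference was 1.42. *Plin1* was at 0 in all 42 libraries.

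Few daily rhythms could be told apart between the genotypes. The clearest group of those that could were genes that peak between ZT 12 and ZT 18 in WT and swing less in GRLKO. In the edgeR fit, 48 of 12834 genes (0.374%) had a genotype by time interaction at an adjusted p under 0.05, and 1252 (9.76%) had an unadjusted p under 0.05. By comparison, the daily mean differed in 2108 genes (16.4%), lower in GRLKO in 945 (7.36%) and higher in 1163 (9.06%). Rhythms themselves were common, with 7126 genes (55.5%) rhythmic in WT, 6865 (53.5%) in GRLKO and 5388 in both. Passing in 1 genotype alone is a poor guide to a difference, since of the 3215 genes rhythmic in only 1 genotype, 20 had an interaction. Across all genes the median amplitude, the distance from the fitted daily mean to the peak on the log2 scale, was 0.23 in WT and 0.24 in GRLKO.

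The 48 genes fell into overlapping classes. Amplitude was reduced in GRLKO in 24 (0.187% of genes tested), where the 95% interval of the difference lay below 0, and increased in 9 (0.0701%). Among the 28 genes rhythmic in both genotypes, the peak time was shifted in 19 (0.148%), of which 6 were also reduced, and 2 genes were in no class. These classes describe the genes the interaction picked out and are no second test. Of the 48, 20 were called in all 42 fits that each left out 1 library, 14 of them in the reduced class, 10 in the shifted class and 0 in the increased class. The count rests on the sampling of the day: it was 12 without ZT 0, 35 without ZT 4, 30 without ZT 8, 22 without ZT 12, 17 without ZT 16 and 85 without ZT 20, and 10, 27, 25, 16, 11 and 39 of the 48 were among them. It was 29 without WT ZT 12 replicate 1 or without GRLKO ZT 16 replicate 1, and 30 without WT ZT 0 replicate 2, GRLKO ZT 12 replicate 2 or GRLKO ZT 16 replicate 2. The reduced class held 3 genes without ZT 0, 15 without ZT 8, 6 without ZT 12, 14 without ZT 16 and 41 without ZT 20. DESeq2 called 137 genes on the same model, of the 8603 to which it gave an adjusted p, and 45 of the 48 were among them, with 3 given none, and time as a 6-level factor called 77, with 33 of the 48.

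**Figure D1:**
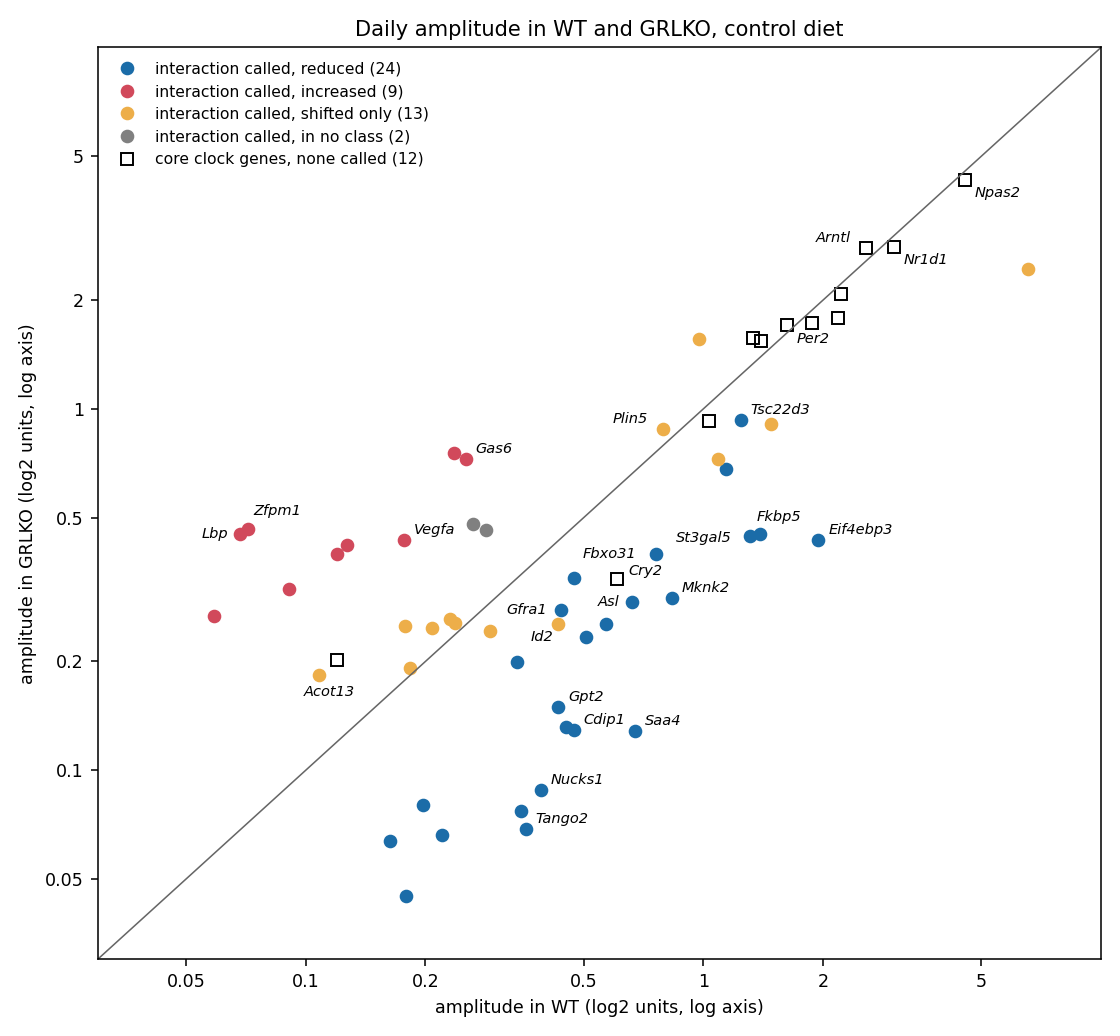
Amplitude in WT (x) against amplitude in GRLKO (y), in log2 units on log axes, for the 48 genes with an interaction, coloured by class, and for 12 core clock genes (squares). The 24 reduced genes lie below the diagonal with WT amplitudes up to 1.95, the 9 increased genes lie above it, and the clock genes lie on both sides of it, 7 of the 12 below.

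The classic glucocorticoid-induced gene *Fkbp5*, which encodes a co-chaperone that lowers the hormone affinity of GR, lost most of its dusk peak (ENSMUSG00000024222, chromosome 17 from 28398753 to 28486149, GRCm38). In WT livers it read 7.48, 13.2 and 16.6 CPM at ZT 4, 63.3, 64.8, 51.2 and 111 at ZT 12 and 53.2, 49.8, 53.7 and 52.8 at ZT 16. In GRLKO livers it read 7.83, 7.37 and 10.02 CPM at ZT 4, 16.9, 16.8, 15.3 and 10.6 at ZT 12 and 12.5, 14.3 and 11.8 at ZT 16. All WT mice at ZT 12 and ZT 16 were above all GRLKO mice at any time, whereas at ZT 4 and ZT 8 the genotypes overlapped. Its amplitude was 1.39 ± 0.13 (SE) in WT and 0.45 ± 0.13 in GRLKO (adjusted p = 0.0198), a peak-to-trough fold of 6.88 against 1.87, and the small swing left in GRLKO peaked at ZT 13.2, close to the WT peak at ZT 13.8. The daily mean fell by 1.12 on the log2 scale. The adjusted p was 0.0634 without ZT 0, 0.195 without ZT 12 and 0.204 without ZT 16, with the amplitude difference still at -1.14, -0.68 and -0.91.

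A second hormone-induced gene, *Tsc22d3*, which encodes the anti-inflammatory leucine zipper protein GILZ, kept a strong rhythm that came later (ENSMUSG00000031431, chromosome X from 140539528 to 140600522). In WT it stood at 31.9 ± 2.51 CPM (SD, n = 4) at ZT 8 and 149 ± 12.4 CPM (SD, n = 4) at ZT 16, and in GRLKO at 23.3 ± 4.52 CPM (SD, n = 4) and 63.5 ± 4.72 CPM (SD, n = 3). The 4 WT mice at ZT 16 read 167, 142, 139.9 and 145 CPM and the 3 GRLKO mice 58.2, 65.05 and 67.3. At ZT 0 the WT mice read 64.7, 50.7 and 37.5 and the GRLKO mice 66.8, 116 and 53.8. So the genotypes were apart through the first part of the night, and at lights on their ranges overlapped, with the highest single value in a GRLKO liver. The amplitude was 1.24 ± 0.11 (SE) in WT and 0.93 ± 0.12 in GRLKO, and the fitted peak moved from ZT 17.04 to ZT 19.996, 2.96 ± 0.586 h later (adjusted p = 0.0131). The adjusted p was 0.281 without ZT 0, where the shift was 1.69 h, 0.152 without ZT 12, 0.0771 without ZT 16 and 0.0504 with 12 h terms added to the model. The amplitude difference, -0.31, was -0.093 without ZT 20.

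In a list of 26 genes known to respond to glucocorticoids in liver, edgeR called these 2 (against 0.374% of all genes tested), limma called 2 and DESeq2 5 (against 47 of 12834, and 137 of the 8603 genes to which DESeq2 gave an adjusted p), and 13 of the 26 had an unadjusted p under 0.05 (against 9.76% of all). The median amplitude difference of the list was -0.11, against 0.0040 for all genes tested, and 17 of 26 had a lower amplitude in GRLKO, as did 6225 of all 12834. Daily means showed the loss more widely, with 12 of 26 lower (against 7.36% of all genes), 0 higher, and a median difference of -0.47 against -0.0027 for all genes. Several well known members had wide gaps in their rhythms that missed the threshold. *Zbtb16*, a zinc finger transcription factor, had amplitudes of 1.23 ± 0.25 (SE) in WT and 0.41 ± 0.29 in GRLKO (adjusted p = 0.0947) and a daily mean that fell by 1.93. *Lpin1*, a phosphatidate phosphatase of triglyceride synthesis and a coactivator, had 2.74 ± 0.45 (SE) in WT and 0.91 ± 0.45 in GRLKO (adjusted p = 0.311). *Scara5*, a ferritin receptor, had 1.35 ± 0.25 (SE) in WT and 0.55 ± 0.32 in GRLKO (adjusted p = 0.140) and a daily mean that fell by 2.81. For *Igfbp1*, the insulin-repressed binding protein of growth factors, the gap ran the other way, with 0.58 ± 0.34 (SE) in WT and 2.29 ± 0.37 in GRLKO (adjusted p = 0.221). The gluconeogenic enzyme gene *Pck1* (1.35 ± 0.23 (SE) in WT and 0.99 ± 0.24 in GRLKO, adjusted p = 0.862), the tyrosine aminotransferase gene *Tat* (0.71 ± 0.11 (SE) in WT and 0.82 ± 0.12 in GRLKO, adjusted p = 0.412) and the phosphatase gene *Dusp1* (0.97 ± 0.25 (SE) in WT and 0.67 ± 0.26 in GRLKO, adjusted p = 0.865) gave no interaction.

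Within the reduced class the widest loss of amplitude was in a repressor of protein synthesis. *Eif4ebp3* (ENSMUSG00000090264) encodes a protein that binds the cap-binding factor eIF4E and holds back translation. WT livers read 10.4, 5.77 and 7.83 CPM at ZT 4 and 127, 53.5, 107 and 65.8 at ZT 16, while GRLKO livers read 2.07, 2.11 and 2.96 and 3.40, 5.88 and 4.92. The lowest WT mouse at ZT 16 was above every GRLKO mouse at any hour, and even at the WT trough the groups did not overlap. Amplitude was 1.95 ± 0.15 (SE) in WT and 0.43 ± 0.19 in GRLKO (adjusted p = 0.00237), a peak-to-trough fold of 14.9 against 1.83. The daily mean fell by 2.82 on the log2 scale, so the flatter fitted curve in GRLKO runs at a low level. The GRLKO rhythm did not pass the test on its own (adjusted p = 0.125). At ZT 12 in WT, replicate 4 read 134 CPM where its 3 group mates read 46.5 to 49.7.

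*Mknk2*, which encodes a kinase that phosphorylates eIF4E, kept a smaller swing in GRLKO, with no called change in its daily mean (ENSMUSG00000020190, chromosome 10 from 80665318 to 80676293). At ZT 0 the 3 WT mice read 36.1, 41.5 and 48.99 CPM and the 3 GRLKO mice 65.3, 66.6 and 59.9, all above them. At ZT 12 the 4 WT mice read 157, 129, 127 and 162 and the 4 GRLKO mice 98.1, 88.3, 139 and 111, lower on average and overlapping. The rhythm was thus squeezed from both ends, higher at the trough and lower at the peak. Its amplitude was 0.83 ± 0.070 (SE) in WT and 0.30 ± 0.071 in GRLKO (adjusted p = 0.0129) with peaks at ZT 11.9 and ZT 12.4, and the daily mean differed by 0.15 (adjusted p = 0.140). The adjusted p was 0.134 without ZT 0, 0.0657 without ZT 8 and 0.0995 without ZT 12. The amplitude difference, -0.53 in the full fit, was then -0.58, -0.54 and -0.53.

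*St3gal5* encodes the sialyltransferase that makes ganglioside GM3, and it had the lowest adjusted p of the genes the naming rule took (ENSMUSG00000056091, chromosome 6 from 72097552 to 72154571). WT mice read 32.6, 28.98 and 38.3 CPM at ZT 4, 175, 208, 175 and 166 at ZT 12 and 169, 126, 166 and 139 at ZT 16. GRLKO mice read 31.97, 32.99 and 26.6, 43.4, 42.02, 52.5 and 53.8 and 73.5, 54.9 and 60.01 at the same times. The genotypes were alike by day, overlapping at ZT 4 and ZT 8, and at ZT 12 the lowest WT mouse was far above the highest GRLKO mouse. Amplitude was 1.31 ± 0.076 (SE) in WT and 0.44 ± 0.079 in GRLKO (adjusted p = 4.98e-05), with the peak at ZT 14.3 and ZT 14.4. The largest adjusted p with any single library left out was 0.000183. Without ZT 12 the amplitude difference went from -0.87 to -0.55 (adjusted p = 0.00662).

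*Asl* encodes argininosuccinate lyase, the urea cycle enzyme that releases arginine (ENSMUSG00000025533, chromosome 5 from 130011258 to 130024381). It was the 1 gene edgeR called of 33 of amino acid breakdown and transport (against 0.374% of all genes), where limma called 1 and DESeq2 2, and 14 had an unadjusted p under 0.05 (against 9.76% of all). At ZT 4 WT mice read 368, 433 and 426 CPM and GRLKO mice 395, 401 and 404, and at ZT 16 WT mice read 1037, 893, 987 and 988 and GRLKO mice 587, 728 and 569. The genotypes overlapped at ZT 0 and ZT 4 and were fully apart at ZT 12, 16 and 20. Its amplitude was 0.66 ± 0.050 (SE) in WT and 0.29 ± 0.053 in GRLKO (adjusted p = 0.0189) around nearly the same peak, and the daily mean fell by 0.37. Without ZT 0, ZT 4, ZT 12 or ZT 16 its adjusted p was 0.134, 0.120, 0.0761 and 0.0547. The amplitude difference, -0.37 in the full fit, was then -0.35, -0.39, -0.36 and -0.44. In the list as a whole 21 of 33 had a lower amplitude in GRLKO (6225 of 12834 among all genes), with a median difference of -0.061, and 11 had a lower and 2 a higher daily mean (against 7.36% and 9.06% of all genes).

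*Gpt2*, the gene of mitochondrial alanine aminotransferase, which turns alanine into pyruvate for glucose production, was the 1 gene edgeR called of 14 in the gluconeogenesis list (against 0.374% of all genes), where limma called 1 and DESeq2 3, and 8 had an unadjusted p under 0.05, against 9.76% of all (ENSMUSG00000031700, chromosome 8 from 85492576 to 85528902). WT mice read 439, 372 and 361 CPM at ZT 0 and 777, 645, 539 and 663 at ZT 12, and GRLKO mice 618, 676 and 595 and 448, 456, 674 and 603. At lights on all 3 GRLKO mice were above the WT mice, and at dusk the groups overlapped. What went missing was the daytime trough: amplitude was 0.43 ± 0.055 (SE) in WT and 0.15 ± 0.056 in GRLKO (adjusted p = 0.0129) and the daily mean was higher by 0.19. The adjusted p was 0.266 without ZT 0 and 0.0954 without ZT 12, where the amplitude difference, -0.28 in the full fit, was -0.30 and -0.20. Its cytosolic counterpart *Gpt* had amplitudes of 0.36 ± 0.051 (SE) in WT and 0.084 ± 0.053 in GRLKO but an adjusted p of 0.144, and *Slc37a4*, the carrier of glucose 6-phosphate, 1.05 ± 0.083 (SE) in WT and 0.74 ± 0.084 in GRLKO with 0.156. For the list 10 of 14 had a lower amplitude in GRLKO (median difference -0.11), and 4 had a higher and 2 a lower daily mean (against 9.06% and 7.36% of all genes).

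*Fbxo31*, the substrate receptor of a ubiquitin ligase, peaked sharply at dusk in WT (ENSMUSG00000052934, chromosome 8 from 121549443 to 121578864). There the 4 WT mice read 78.8, 63.7, 70.6 and 77.8 CPM and the 4 GRLKO mice 34.96, 34.4, 32.8 and 31.2, with no overlap, while at ZT 0 both genotypes lay near 22.2. Amplitude was 0.76 ± 0.068 (SE) in WT and 0.40 ± 0.070 in GRLKO, and the smaller GRLKO peak came 3.42 ± 0.771 h earlier, at ZT 9.11 (adjusted p = 0.00547, and 0.0682 without ZT 0). Its size leaned on ZT 12, without which the amplitude difference was -0.17 in place of -0.36 (adjusted p = 0.0202). *Cdip1*, a p53-responsive gene of a protein that promotes cell death, read 130.002, 129, 129 and 144 CPM in WT and 58.6, 52.97, 59.6 and 55.1 in GRLKO at ZT 12 (ENSMUSG00000004071, chromosome 16 from 4765461 to 4790292). GRLKO livers stayed between 44.5 and 59.6 CPM at all hours. Its amplitude was 0.47 ± 0.061 (SE) in WT and 0.13 ± 0.064 in GRLKO (adjusted p = 0.00401, and 0.0752 without ZT 0), and the GRLKO rhythm did not pass the test on its own (adjusted p = 0.217). Without ZT 12 its amplitude difference went from -0.34 to -0.12, and the call held (adjusted p = 0.00202).

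The lowest p of all went to *Nucks1*, a gene of a DNA-binding nuclear phosphoprotein, which lay outside the naming rule and was picked after its values were seen (ENSMUSG00000026434, chromosome 1 from 131910458 to 131936321). WT mice read 51.5, 50.3 and 60.6 CPM at ZT 0 and 83.8, 91.2, 86.01 and 93.98 at ZT 12, and GRLKO mice 57.8, 58.5 and 62.5 and 51.5, 53.03, 54.1 and 53.2. The genotypes overlapped at lights on and were fully apart at dusk. Amplitude was 0.39 ± 0.037 (SE) in WT and 0.088 ± 0.038 in GRLKO (adjusted p = 3.39e-06), with the WT peak at ZT 14.7. The next reduced genes were also picked after their values were seen. *Etnk2*, an ethanolamine kinase of phospholipid synthesis, had 0.57 ± 0.042 (SE) in WT and 0.25 ± 0.044 in GRLKO (adjusted p = 0.0189). *Gpat4*, which adds a fatty acid to glycerol 3-phosphate, had 0.45 ± 0.049 (SE) in WT and 0.13 ± 0.051 in GRLKO (adjusted p = 0.0276, and at most 0.0648 with 1 library left out). *Saa4*, the constitutive serum amyloid A, had 0.67 ± 0.079 (SE) in WT and 0.13 ± 0.083 in GRLKO (adjusted p = 0.0330, at most 0.0736). The mitochondrial RNA polymerase gene *Polrmt* and the mitochondrial chaperone gene *Dnaja3* had small WT rhythms of 0.16 and 0.18 that were 0.064 and 0.045 in GRLKO.

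Most of the reduced genes peak at about the same hours in WT. Of the 24, 20 (83.3%) peaked between ZT 12 and ZT 18, where 1867 of the 7126 genes rhythmic in WT (26.2%) did. Of the 40 called genes that were rhythmic in WT, 26 (65%) peaked in this window. That set contains the 24 reduced genes, and 20 of the 26 are theirs. It is therefore no separate comparison and does not show whether the window marks the reduced class alone. Their median amplitude was 0.47 in WT and 0.22 in GRLKO. A lower daily mean passed the test in 15 (against 7.36% of all genes), a higher one in 3 (against 9.06%), and 6 had no called difference in level, so a flatter rhythm was not always a lower transcript. Of all 48 genes, 22 had a lower and 11 a higher daily mean, set against those same shares.

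**Figure D2:**
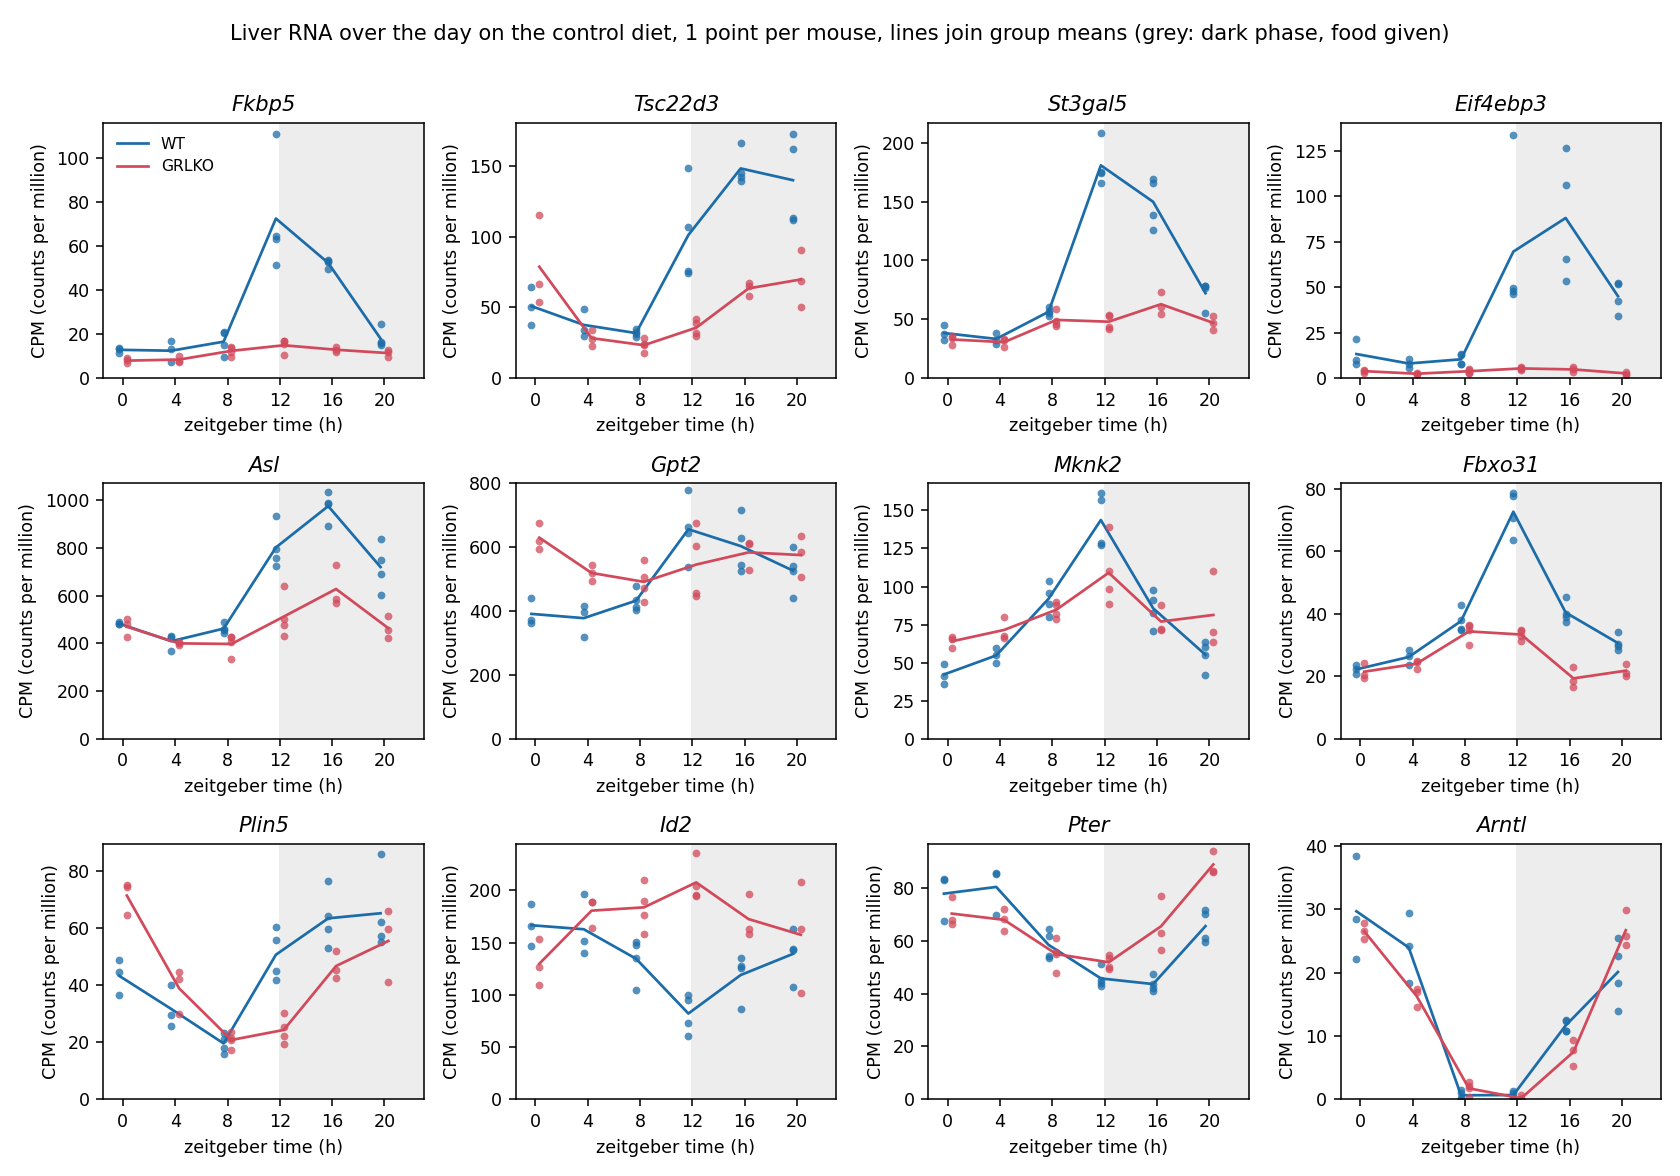
CPM (y) against zeitgeber time in hours (x) for 12 genes, 1 point per mouse, with lines joining the group means of WT (blue) and GRLKO (red). The dusk rise of *Fkbp5*, *St3gal5* and *Eif4ebp3* in WT is much smaller in GRLKO, *Plin5* and *Id2* run at a different phase, and the clock gene *Arntl* follows about the same course in both.

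In 9 genes the rhythm was wider without GR, and none of these calls held in every fit without 1 library. The genes were *Lbp*, *Gas6*, *Vegfa*, *Glyat*, *Zfpm1*, *Zfp933*, *Med7*, *Dock1* and *Arhgef37*, all outside the naming rule and described after their values were seen, and their median amplitude was 0.12 in WT and 0.43 in GRLKO. *Lbp* encodes the acute-phase protein that binds bacterial lipopolysaccharide. At ZT 16 WT mice read 46.6, 38.7, 42.7 and 48.2 CPM and GRLKO mice 27.9, 29.5 and 27.97, with no overlap, and at ZT 8 50.4, 46.3, 50.98 and 48.6 and 48.003, 48.6, 44.1 and 46.04, overlapping. *Lbp* was flat in WT and dipped at night in GRLKO, with amplitudes of 0.068 ± 0.055 (SE) in WT and 0.45 ± 0.058 in GRLKO (adjusted p = 0.0276). *Gas6*, the ligand of the TAM receptor kinases, had 0.25 ± 0.079 (SE) in WT and 0.73 ± 0.080 in GRLKO (adjusted p = 0.0314) and a daily mean higher by 1.06. *Vegfa*, the endothelial growth factor gene, read 224, 233, 277 and 229.5 CPM in WT and 333, 341 and 329 in GRLKO at ZT 16, where the groups did not overlap, and its amplitude was 0.18 ± 0.038 (SE) in WT and 0.43 ± 0.039 in GRLKO (adjusted p = 0.0392). *Glyat*, which conjugates glycine to acyl groups, had 0.13 ± 0.044 (SE) in WT and 0.42 ± 0.045 in GRLKO (adjusted p = 0.0444).

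Each of the 9 lost its call in at least 1 fit without a single library. The size of the increased class, whichever genes it then held, was 1 without GRLKO ZT 16 replicate 1, 2 without WT ZT 0 replicate 2, GRLKO ZT 12 replicate 2 or WT ZT 16 replicate 2, and 3 without WT ZT 4 replicate 1, WT ZT 12 replicate 1, GRLKO ZT 12 replicate 1, GRLKO ZT 16 replicate 2 or WT ZT 20 replicate 2. It was 4 without WT ZT 0 replicate 1, GRLKO ZT 0 replicate 3, GRLKO ZT 8 replicate 4, WT ZT 16 replicate 1 or WT ZT 16 replicate 4, and 5 without GRLKO ZT 0 replicate 1, WT ZT 8 replicate 2, GRLKO ZT 8 replicate 2 or GRLKO ZT 16 replicate 3. It was 14 without WT ZT 12 replicate 3 or GRLKO ZT 12 replicate 3, and 4 without the 3 libraries that stood apart. Among time points it was 4 without ZT 0, 3 without ZT 4, 3 without ZT 8, 0 without ZT 16 and 16 without ZT 20.

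A changed peak time was the other main form of difference. Of the 19 shifted genes, 8 peaked later and 11 earlier in GRLKO, by a median of 4.55 h in either direction, where the 5388 genes rhythmic in both genotypes had a median of 0.897 h. The class takes only called genes whose 95% interval of the shift leaves out 0, so a larger median follows from the choice. The farthest move in the class was in *Id2*, which encodes an inhibitor of helix-loop-helix transcription factors (ENSMUSG00000020644, chromosome 12 from 25093799 to 25096092). At ZT 12 WT mice were at their lowest on average, 95.3, 60.5, 99.96 and 72.9 CPM, and GRLKO mice at their highest, 205, 236, 196 and 195. At ZT 0 the order was the other way in most mice, 166, 147 and 187 in WT and 154, 109 and 127 in GRLKO. The genotypes were fully apart at dusk and overlapped at lights on. The fitted peak was at ZT 0.969 in WT and ZT 10.96 in GRLKO, 9.99 ± 1.46 h later (adjusted p = 0.0113), close to the reverse of the WT pattern, with amplitudes of 0.43 ± 0.082 (SE) in WT and 0.25 ± 0.082 in GRLKO. In the test of rhythm within a genotype the adjusted p was 0.000202 in WT and 0.0308 in GRLKO, so the GRLKO rhythm was weak. The adjusted p of the interaction was 0.185 without ZT 0 and 0.385 without ZT 12, with the fitted shift at 9.60 and 9.25 h. *Id2* was the gene edgeR called of 18 tested in the immediate-early list (against 0.374% of all genes), where limma called 1 and DESeq2 2, and 9 had an unadjusted p under 0.05 (against 9.76% of all).

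*Plin5* coats lipid droplets in cells that burn fat and ties the droplets to mitochondria (ENSMUSG00000011305, chromosome 17 from 56111597 to 56117606). It rose at dusk in WT and only later in the night in GRLKO. At ZT 12 WT mice read 45.1, 60.4, 55.9 and 41.7 CPM and GRLKO mice 25.5, 30.3, 19.3 and 22.3, and at ZT 0 48.9, 44.8 and 36.5 and 74.6, 75.3 and 64.8. Every WT mouse was higher at dusk and every GRLKO mouse higher at dawn. The peak moved from ZT 18.1 to ZT 21.6, 3.60 ± 0.629 h later (adjusted p = 0.00861), with about equal amplitudes of 0.79 ± 0.092 (SE) in WT and 0.88 ± 0.096 in GRLKO and daily means that differed by -0.11 (adjusted p = 0.518). The adjusted p was 0.206 without ZT 0 and 0.235 without ZT 12, with the fitted shift at 3.37 and 2.58 h. The small amplitude difference of 0.090 became -0.051 without ZT 4. It was the 1 gene edgeR called of 29 of fatty acid oxidation and PPARα targets (against 0.374% of all genes), where limma called 1 and DESeq2 2, and 7 had an unadjusted p under 0.05 (against 9.76% of all). There the daily mean was higher in GRLKO in 19 of 29 (against 9.06% of all genes) and lower in 0, a median difference of 0.27, while amplitudes differed by a median of -0.065.

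Other genes peaked earlier in GRLKO. *Gfra1*, the GDNF co-receptor gene, stood at 199 ± 22.4 CPM (SD, n = 4) in WT and 96.6 ± 2.74 CPM (SD, n = 3) in GRLKO at ZT 16 (ENSMUSG00000025089, chromosome 19 from 58235581 to 58455946). The lowest of those WT values, 176 CPM, was above the highest GRLKO value, 99.2, and its peak came 4.55 ± 0.738 h earlier with the amplitude down from 0.44 to 0.28 (adjusted p = 0.00163). *Pter*, the phosphotriesterase-related gene, is lowest around ZT 16 in WT (ENSMUSG00000026730, chromosome 2 from 12924037 to 13003454). At ZT 20 WT mice read 60.9, 59.6, 71.5 and 70.2 CPM and GRLKO mice 94.1, 86.4 and 86.2, and at ZT 4 85.8, 85.5 and 69.9 and 63.6, 71.9 and 68.2. GRLKO livers were thus already high before lights on, when WT livers were still rising, and the peak came 3.91 ± 0.637 h earlier (adjusted p = 0.00237, and 0.0942 without ZT 16).

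The rule also took 4 genes with small rhythms for which the difference lay in the timing. *Acot13*, a thioesterase of long-chain acyl-CoA, had amplitudes of 0.11 ± 0.034 (SE) in WT and 0.18 ± 0.036 in GRLKO, a peak 8.38 ± 1.45 h later and a daily mean higher by 0.36 (adjusted p = 0.0198). *Rab3gap1*, a subunit of the complex that activates the GTPase of Rab3, had 0.21 ± 0.030 (SE) in WT and 0.25 ± 0.032 in GRLKO with a peak 4.13 ± 0.740 h earlier (adjusted p = 0.0189). *Hnrnpa3*, an RNA-binding protein gene, had 0.24 ± 0.033 (SE) in WT and 0.26 ± 0.035 in GRLKO with a peak 4.57 ± 0.735 h earlier (adjusted p = 0.00861). *Wbp1l*, a membrane protein gene, had 0.18 ± 0.039 (SE) in WT and 0.19 ± 0.042 in GRLKO with a peak 8.96 ± 1.12 h earlier (adjusted p = 0.00439). In all 4 the 95% interval of the amplitude difference held 0, so neither a rise nor a fall was shown, and the differences were 0.075 ± 0.050, 0.041 ± 0.044, 0.017 ± 0.048 and 0.0081 ± 0.057 (SE). All 4 kept their calls without ZT 20, where the adjusted p was 0.0294, 0.0288, 0.0120 and 0.00942, and with any other single hour left out at least 1 of them lost it. *Rab3gap1*, *Hnrnpa3* and *Wbp1l* kept theirs without ZT 0 (0.0148, 0.00754 and 0.0380), *Hnrnpa3* and *Wbp1l* without ZT 8 (0.0434 and 0.00642), *Acot13* and *Hnrnpa3* without ZT 12 (0.0246 and 0.0283) and *Wbp1l* without ZT 4 (0.0110). The rest were lost: without ZT 4 the adjusted p was 0.0989 for *Acot13*, 0.248 for *Rab3gap1* and 0.0868 for *Hnrnpa3*, and without ZT 16 it was 0.1099, 0.0672, 0.180 and, for *Wbp1l*, 0.0649. It was 0.0682 without ZT 0, 0.207 without ZT 8 and 0.0524 with 12 h terms for *Acot13*, 0.0927 without ZT 8 and 0.111 without ZT 12 for *Rab3gap1*, and 0.111 without ZT 12 for *Wbp1l*. *Tmem161b* entered the class by its fit alone: it read 5.91, 7.82, 0 and 0 CPM in the 4 WT mice at ZT 12 and 0 in nearly every other WT liver, so its timing is not described. *Glra3* and *Adamts15* were also near the floor in WT, with means of 0.434 and 0.740 CPM, and are not described either. DESeq2 gave none of these genes an adjusted p, and they remain in the class counts and its median shift. The shifted class held 8 genes without ZT 0, 9 without ZT 12, 7 without ZT 16, 43 without ZT 20 and 12 without GRLKO ZT 16 replicate 2.

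**Figure D3:**
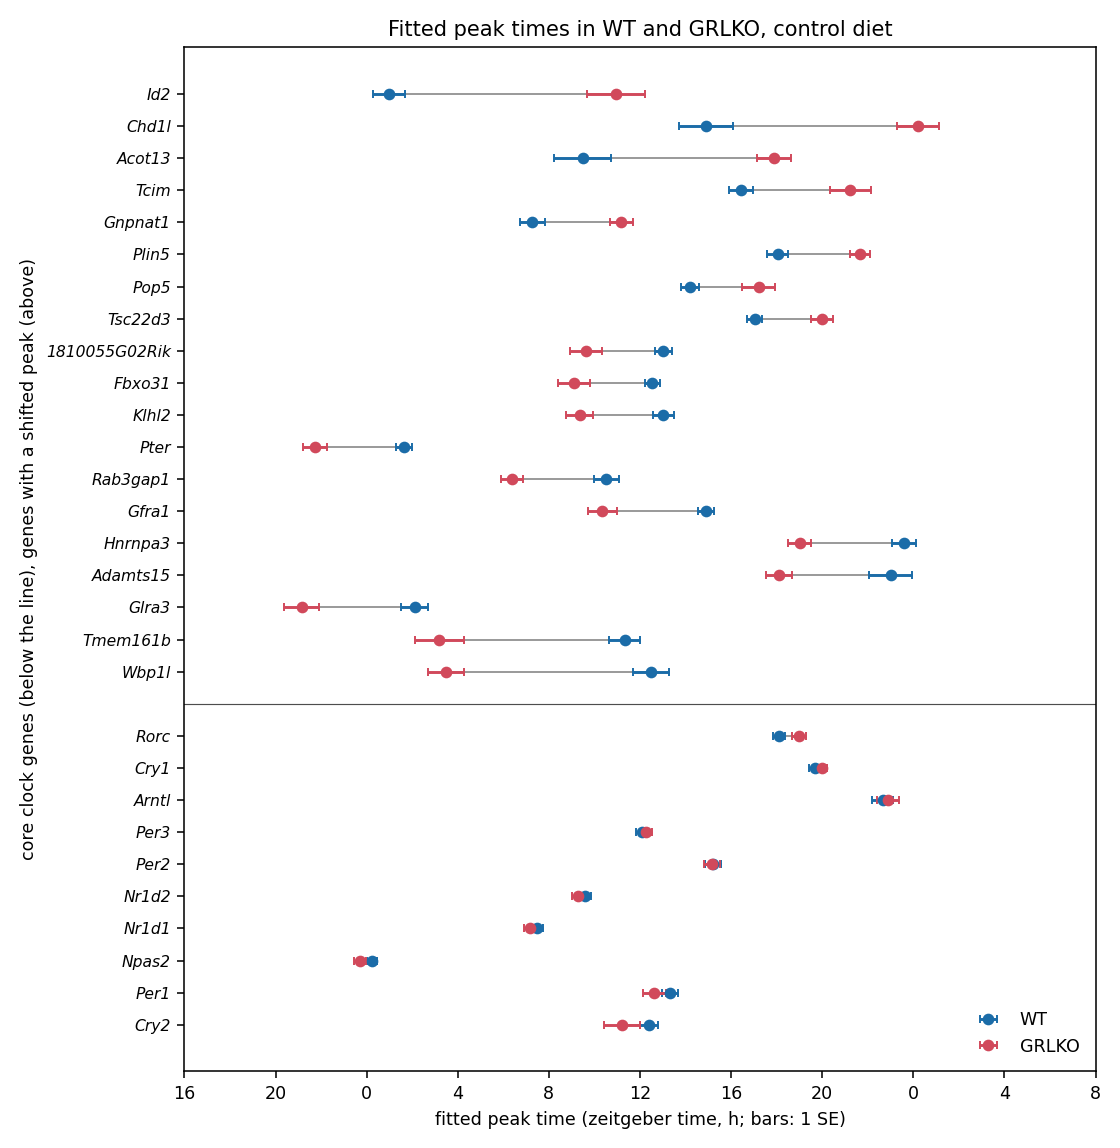
Fitted peak time in zeitgeber hours (x, bars show 1 SE) in WT (blue) and GRLKO (red) for the 10 core clock genes rhythmic in both genotypes and the 19 genes with a shifted peak (y), the GRLKO point drawn at the WT time plus the shift. The clock genes differ by at most 1.22 h, and the shifted genes by up to 9.99 h.

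No clock gene passed the test, and the fitted peaks of those rhythmic in both genotypes lay within 1.22 h of each other. Of 12 clock genes, edgeR called an interaction in 0 (against 0.374% of all genes), as did DESeq2 and limma. An unadjusted p under 0.05 was found for 1, *Cry2* (against 9.76% of all genes). At those shares, such counts in 12 genes say little about the clock. *Arntl* read 28.5, 22.1 and 38.4 CPM at ZT 0 in WT and 25.2, 26.6 and 27.7 in GRLKO, and at ZT 12 it averaged 0.671 and 0.159 CPM. Its peak was at ZT 22.7 and ZT 22.9, a difference whose 95% interval ran from -1.06 to 1.51 h, and its amplitude was 2.57 ± 0.33 (SE) in WT and 2.79 ± 0.35 in GRLKO. *Nr1d1*, the repressor REV-ERBα, peaked at ZT 7.49 and ZT 7.17 (interval of the difference -1.06 to 0.407 h) with 3.01 ± 0.21 (SE) in WT and 2.81 ± 0.22 in GRLKO. *Per2* peaked at ZT 15.2 and ZT 15.1 (interval -1.02 to 0.933 h) with 1.62 ± 0.16 (SE) in WT and 1.71 ± 0.17 in GRLKO. *Per1*, a period gene that glucocorticoids induce, had 2.18 ± 0.23 (SE) in WT and 1.78 ± 0.25 in GRLKO (adjusted p = 0.841), while its daily mean fell by 0.86 (adjusted p = 0.00815). The daily mean of *Cry1* fell by 0.26 (adjusted p = 0.0346) and that of *Per3* was higher by 0.43 (adjusted p = 0.0424). *Cry2* had the largest gap in timing of the clock genes rhythmic in both, 1.22 ± 0.885 h earlier, with amplitudes of 0.61 ± 0.067 (SE) in WT and 0.34 ± 0.067 in GRLKO (adjusted p = 0.343). *Clock*, which fell short of rhythmic in either genotype, had wide errors (1.33 ± 0.45 (SE) in WT and 1.57 ± 0.48 in GRLKO). Over the 12 genes the median amplitude was 1.75 in WT and 1.72 in GRLKO, the median of the differences was -0.12, about that of the glucocorticoid list, and 7 of 12 were lower. The 10 rhythmic in both had a median shift of -0.172 h, against 0.115 h for all genes rhythmic in both.

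The 16 direct outputs of the clock, among them *Dbp*, *Tef* and *Ciart*, were all rhythmic in both genotypes (against 5388 of all 12834 genes). In this list edgeR called 0 interactions (against 0.374% of all genes), 2 had an unadjusted p under 0.05 (against 9.76%), DESeq2 called 1 and limma 0. *Dbp*, a transcription factor driven straight by the clock, had amplitudes of 3.51 ± 0.20 (SE) in WT and 3.52 ± 0.19 in GRLKO and peaks at ZT 10.3 and ZT 10.6. *Por*, the electron donor of cytochromes P450, came closest, with 1.31 ± 0.079 (SE) in WT and 0.94 ± 0.080 in GRLKO and an adjusted p of 0.0989. The list had a median amplitude difference of -0.059.

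In the other functional lists edgeR called 0 interactions each (against 0.374% of all genes). The counts below stand beside 9.76% of all genes with an unadjusted p under 0.05, 137 called by DESeq2 of the 8603 to which it gave an adjusted p, and 47 of 12834 called by limma. In lipid synthesis, of 21 genes of fatty acid and triglyceride synthesis 4 had an unadjusted p under 0.05, DESeq2 called 1 and limma 0, with a median amplitude difference of -0.050. *Lpin2*, a phosphatidate phosphatase, came nearest at 0.82 ± 0.096 (SE) in WT and 0.29 ± 0.098 in GRLKO and an adjusted p of 0.0509. For 22 genes of cholesterol synthesis those counts were 1, 0 and 0 (median 0.043), and for 16 of bile acid handling 0, 0 and 0 (median -0.048). Hormone-driven groups gave 2, 0 and 1 of 21 growth hormone and STAT5 targets (median 0.012) and 4, 1 and 0 of 20 insulin, FOXO and glycogen genes (median -0.020). In the latter, *Foxo1*, the transcription factor that insulin restrains, had 0.42 ± 0.057 (SE) in WT and 0.19 ± 0.058 in GRLKO and an adjusted p of 0.0989. Chaperones that follow body temperature gave 3, 1 and 0 of 27 (median 0.089), and 25 of the 27 were rhythmic in both genotypes (against 5388 of all 12834 genes). Drug metabolism gave 5, 2 and 0 of 22 (median -0.090), acute-phase proteins 4, 1 and 0 of 19 (median 0.0044), autophagy 7, 1 and 0 of 22 (median 0.029) and the cell cycle 1, 0 and 0 of 16 (median 0.060). Acute-phase genes differed in level, with 12 of 19 lower in GRLKO (against 7.36% of all genes) and 0 higher, and lipid synthesis genes the other way, with 8 of 21 higher (against 9.06%) and 1 lower.

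The same genotypes were also sampled over the day under caloric restriction, 3 mice per genotype and time, 36 libraries in all, and that series puts the control diet in context. There the interaction was called in 130 of 13041 genes (0.997%), against the 0.374% above, and 12 genes were called on both diets, *Nucks1*, *St3gal5*, *Eif4ebp3*, *Tsc22d3*, *Gfra1* and *Acot13* among them. Diet coincides with library series, so levels were not compared between diets, only the genotype effect within each. The restricted mice had their food cut stepwise over several weeks and got the daily ration at ZT 12. Both the amount of food and the hours of eating could thus differ between the diets. Of the 24 reduced genes, 21 also had a lower fitted amplitude in GRLKO under restriction, as did 6906 of all 13041 genes tested there. *Fkbp5* had amplitudes of 1.46 in WT and 0.58 in GRLKO there (adjusted p = 0.0660), and *Eif4ebp3* 1.61 and 0.40 (adjusted p = 0.00406). *Mknk2* kept its rhythm in both genotypes under restriction, 0.91 and 0.84 (adjusted p = 0.555). The test of whether the interaction itself differs between diets called 4 of 13376 genes (0.0299%) and none of the 48, for which the smallest adjusted p was 0.0783, 25 had an unadjusted p under 0.05 (1233 of all 13376, 9.22%) and DESeq2 called 5. The 48 were picked for their interaction on the control diet, which is part of that contrast, so small p values are more common among them by the choice alone and 25 is no sign of a difference. For *Mknk2* that adjusted p was 0.166, so a difference between diets was not shown for it. With the replicate number as a block the count of 4 became 0, and DESeq2 called 54.

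Promoter sequence was looked at because most reduced genes peak between ZT 12 and ZT 18 in WT. Windows of 250 bases before to 50 after a listed start were taken from RefSeq (GRCm38.p6), which held 36 of the 48 genes and 20 of the 24 reduced ones. For each called gene only the first listed window was used, while the shares of all promoters count every listed window. A listed start need not be the outer end of the gene. The window of *Cdip1* lies inside the gene span given above, and other starts were not searched. On either strand, the GR palindrome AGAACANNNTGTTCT was in 3 of 32851 promoters and in 0 of the 36, and AGAACA, the hexamer it starts with, was in 19.0% of all promoters and 1 of the 36. The E-box CACGTG, which clock proteins bind, was in 7.15% of all promoters and in 3 of the 36, those of *Fkbp5*, *Hnrnpa3* and *Zfp933*. The nuclear receptor hexamer AGGTCA was in 16.3% of all promoters and in 4 of the 36, those of *Cdip1*, *Plin5*, *Med7* and *Saa4*. The D-box TTATGTAA was in 0.938% of all promoters and in 0 of the 36. Below are the windows of *Fkbp5* (chr17:28486100-28486399, minus strand), with its E-box in capitals, and of *Plin5* (chr17:56117499-56117798, minus strand) and *Cdip1* (chr16:4789892-4790191, minus strand), with AGGTCA or its reverse complement in capitals, each written 5′ to 3′ along the gene. A match says that these letters are in the window and nothing on binding, and enhancers farther away were not searched.
Fkbp5: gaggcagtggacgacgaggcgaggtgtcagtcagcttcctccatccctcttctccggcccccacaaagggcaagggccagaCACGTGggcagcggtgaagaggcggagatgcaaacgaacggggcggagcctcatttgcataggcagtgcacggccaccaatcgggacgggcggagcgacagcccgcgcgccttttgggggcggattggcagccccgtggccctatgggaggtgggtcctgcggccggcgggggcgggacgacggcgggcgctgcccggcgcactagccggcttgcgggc
Plin5: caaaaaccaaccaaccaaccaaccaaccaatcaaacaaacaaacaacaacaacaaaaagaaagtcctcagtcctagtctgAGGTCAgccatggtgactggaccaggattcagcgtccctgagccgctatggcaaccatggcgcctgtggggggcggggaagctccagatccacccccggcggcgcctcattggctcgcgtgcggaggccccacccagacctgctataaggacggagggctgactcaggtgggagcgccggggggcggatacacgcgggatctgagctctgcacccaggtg
Cdip1: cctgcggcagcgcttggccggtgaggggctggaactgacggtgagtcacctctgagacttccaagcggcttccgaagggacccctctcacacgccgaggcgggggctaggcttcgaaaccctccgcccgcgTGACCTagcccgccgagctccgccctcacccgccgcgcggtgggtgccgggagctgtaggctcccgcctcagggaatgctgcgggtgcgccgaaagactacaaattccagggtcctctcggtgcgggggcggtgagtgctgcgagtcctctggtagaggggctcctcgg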

How the data were processed

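The authors checked reads with FastQC, quantified them with Salmon and deposited expected counts (estimated counts per gene, not scaled to library size), many of which are not whole numbers. They were rounded, and genes were kept with the edgeR filter at a minimum count of 10 within the 12 groups of genotype and time. Symbols were matched to 27244 of 27654 gene IDs. A quasi-likelihood model (edgeR 4.0.16 in R 4.3.3, TMM scaling) held genotype, the cosine and sine of 24 h time and their products. The interaction was tested with 2 degrees of freedom and adjusted by Benjamini-Hochberg over 12834 genes, called at an adjusted p under 0.05. Rhythm within a genotype and the daily mean were tested in the same fit. Amplitude and peak time carry delta-method standard errors. Caloric restriction was fitted the same way, and a joint model tested the difference between diets over 13376 genes.

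Alternatives were DESeq2 1.42.0, limma 3.58.1 on variance-stabilised values, other scaling and filters, a replicate block, robust dispersion, 12 h terms, time as a factor, and leaving out each library or time point. The model was also run on simulated data, and no result given here rests on that. Genes were named if called in all 42 fits without 1 library, with a mean of at least 5 CPM and at least 1 CPM in every library of a genotype: the 8 largest falls and 8 largest rises of amplitude (5 existed), the 6 largest shifts among those with an amplitude of at least 0.25 in both genotypes, *Nr3c1* and called members of the lists. Members and lists were chosen with earlier results of these data known. The separate ZT 12 experiments of the series were not used.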

Additional observations from a re-analysis of the deposited data

Results flagged for a closer look

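In a group of 4 mice, a value was singled out when it lay far from the other 3 beside the spread of the whole group. Of 174 groups looked at, 10 held such a value (5.75%), and chance alone gives about 1 in 20 groups. In WT at ZT 12, *Eif4ebp3* read 134 CPM in replicate 4 and 46.5 to 49.7 in the others, and *Cdip1* read 144 CPM in the same mouse and 129 to 130.0 in the others. *Gfra1* read 150.4 CPM in WT ZT 12 replicate 1 and 219 to 224 in the others. In WT at ZT 20, *Fkbp5* read 24.4 CPM in replicate 4 (others 14.9 to 16.3), *St3gal5* 55.3 in replicate 2 (others 76.7 to 78.4) and *Cdip1* 95.9 in replicate 1 (others 77.4 to 78.5). *Hnrnpa3* read 116 CPM in GRLKO ZT 8 replicate 4 (others 127 to 128). Among marker sums, the endothelial genes gave 109 CPM in WT ZT 16 replicate 2 (others 105.0 to 105.4). Exocrine pancreas genes gave 787 CPM in that same liver (others 0.430 to 4.95), and 1.04 CPM in GRLKO ZT 12 replicate 3 (others 0.367 to 0.471).

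The genotype effect on rhythm differed between the diets by the test of that difference in 4 genes, with adjusted p = 0.0357 for *Hnrnpll*, an RNA-binding protein gene, 0.0420 for *Mettl7b*, a methyltransferase of lipid droplets, 0.0468 for *Tgtp1*, an interferon-induced GTPase gene, and 0.0357 for *Gm10241*. None of the 4 passed with the replicate number as a block, where the adjusted p was 0.0522, 0.0522, 0.112 and 0.0522 in that order. On the control diet alone no interaction was called in any of them (adjusted p = 0.373, 0.193, 0.534 and 0.1902 in the same order), so the control-diet values that follow are fitted values and no called change. *Mettl7b* had fitted amplitudes of 0.20 in WT and 0.36 in GRLKO on the control diet and 0.29 and 0.63 under restriction, and a fitted GRLKO peak 1.98 h later on the control diet and 1.83 h earlier under restriction. *Hnrnpll*, whose WT amplitude was 0.051 on the control diet, peaked 9.35 h later in GRLKO there and 8.195 h earlier under restriction. *Tgtp1* peaked 4.03 h later in GRLKO on the control diet and 6.44 h earlier under restriction. *Gm10241* read 0 in most libraries, so its amplitudes could not be estimated.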

How the results depend on the processing

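The number of genes with an interaction, 48, was 137 with DESeq2, 77 with time as a factor, and 12, 30, 22, 17 and 85 without ZT 0, 8, 12, 16 and 20, and ran from 29 to 61 without 1 library. It stayed within 1.5 times of 48 with limma (47), other size factors (47), no filter (34), a stricter filter (48), robust dispersion (46), 12 h terms (56) and without ZT 4 (35). The reduced class of 24 held 3, 15, 6, 14 and 41 genes without ZT 0, 8, 12, 16 and 20, and 16 to 26 without 1 library. The increased class of 9 held 4 with no filter, 14 with 12 h terms, 4, 3, 3, 0 and 16 without ZT 0, 4, 8, 16 and 20, and 1 to 14 without 1 library. The shifted class of 19 held 8, 9, 7 and 43 without ZT 0, 12, 16 and 20, and 12 to 27 without 1 library. The 2108 genes with a different daily mean ran from 1946 to 2246 without 1 library. The 4 genes that differed between diets were 54 with DESeq2. The cause of these moves was not tested. Fits that leave some out hold fewer hours or mice, and without ZT 20 the interaction count and each class rose.

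With the replicate number as a replicate block the interaction count was 32, with 16 reduced, 4 increased and 15 shifted genes, 2056 genes differed in daily mean, and 0 differed between diets (1166 at an unadjusted p under 0.05, 1233 without the block). Of the 48 genes of the main fit, 29 were called with the block. The numbers gave little sign of pairing the mice. Group means were removed first. The 20 WT and GRLKO pairs of the same time and number then had a median r of 0.016, against -0.017 for other pairs. Of 22 WT libraries, 20 had a GRLKO library of their own number, and 7 were closest to it. Correlations from so few mice in a group cannot show whether a number marks a shared batch.

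Chosen after seeing the data, a fit without the 3 libraries that stood apart gave 39 interactions, with 23 reduced, 4 increased and 15 shifted genes. Of the named genes, 4 changed the sign of an amplitude difference that was near 0 from the start. For *Plin5* it was -0.051 without ZT 4, 0.011 with the replicate block and 0.012 to 0.160 without 1 library. For *Rab3gap1* it was -0.0014 without ZT 0 and 0.019 to 0.063 without 1 library. For *Hnrnpa3* it was -0.0023 without ZT 20, -0.0076 without the 3 libraries, and -0.013 to 0.037 without 1 library. For *Wbp1l* it was -0.0048 with the replicate block, -0.074 without ZT 4, -0.034 without ZT 8, -0.020 without ZT 16 and -0.011 to 0.035 without 1 library. At depths of 10057400 counts and more, genes below the filter could not be tested.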
